A study of Mus musculus with 20 samples.

Results

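Conventional type 1 dendritic cells (cDC1s) sorted from the peripheral lymph nodes and from the spleen of control mice were compared across all genes. The comparison rests on 6 libraries of the 20 in the series, 3 from each tissue, chosen by their labels alone. The lymph node cells were sorted as migratory XCR1+SIRPa- cDC1s and the spleen cells as CCR7+XCR1+SIRPa- cDC1s, so a difference between the tissues is also a difference between the sorts. The sample labels also give the lymph node cells as CCR7+, which the design text of the series does not. All 6 libraries carry the genotype Eporflox/flox, in which the erythropoietin receptor gene is flanked by recombination sites. No Cre is named for them. Strain, age, sex and treatment are not given for these samples in the sources used here, nor is it stated whether the libraries of a group came from separate mice. The p-values therefore measure the spread between libraries, which may be technical. A further 6 libraries of the same table, from the same tissues of Epor-Xcr1-Cre cKO mice, in which Cre is driven from the Xcr1 gene, entered the fit and served as separate libraries of the same tissue contrast.

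cDC1s are the dendritic cells that take up dying cells and present their antigens to CD8+ T cells. They depend on the transcription factors IRF8 and BATF3 and are recognised by XCR1, CLEC9A and, in lymphoid organs, CD8a. After maturation they express CCR7, the receptor that guides them along CCL19 and CCL21 into T cell zones. In the spleen CCR7+ cells have matured within the organ, whereas migratory cells of a lymph node have arrived from a peripheral tissue through the lymph.

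Total counts ran from 26618029 to 35667430 in the 3 spleen libraries and from 36995723 to 41041983 in the 3 lymph node libraries. Spleen library 3 stood apart from the other spleen libraries, with 25039 genes detected against 18786 and 21006, and 36.4% of its counts in its most abundant 50 genes against 30.2% and 30.3%. The first principal component of all 6 libraries held 55.3% of the variance and separated the tissues. The next held 18.4% and separated spleen library 1 from spleen libraries 2 and 3, while the lymph node libraries lay close together. Levels are CPM, the counts of a gene per 1000000 counts of its library, scaled by the trimmed mean of M-values (TMM), and each series of values gives libraries 1, 2 and 3 of a tissue in that order. Differences are log2 fold changes of lymph node over spleen with their standard errors (SE). A gene is said to rise or fall in the lymph node cells where edgeR's quasi-likelihood test gave a Benjamini-Hochberg adjusted p under 0.05 over all genes tested. In bulk RNA a lower level in fewer cells and a lower level per cell cannot be told apart.

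Genes of the sort were detected in both tissues, and Xcr1 and, less firmly, Sirpa were lower in the lymph node cells. Ccr7, encoding the homing receptor, was at 4610, 4980 and 4410 CPM in the spleen and 4570, 3800 and 4190 CPM in the lymph node. The groups overlapped, with a log2 fold change of -0.16 (SE 0.08, edgeR adjusted p = 0.131). With upper-quartile factors Ccr7 passed as lower, at -0.23 (adjusted p = 0.0222). Xcr1, the receptor for the T cell chemokine XCL1 and a sort marker of both groups, was at 89.9, 108 and 86.5 CPM in the spleen and 30, 21.6 and 32.3 CPM in the lymph node. All spleen libraries were above all lymph node libraries, by a log2 fold change of -1.76 (SE 0.15, edgeR adjusted p = 2.54e-07). Sirpa, whose protein was gated against, stayed low in both, at 14.1, 15 and 11.8 CPM in the spleen and 6.15, 8.59 and 7.18 CPM in the lymph node. Its fall by 0.90 on the log2 scale (edgeR adjusted p = 0.0115) was lost without lymph node library 1 (-0.78, adjusted p = 0.0551). Epor (chromosome 9, 21958897 to 21963506, minus strand, mm10) was at the edge of detection in these controls. Its raw counts were 1, 0 and 6 in the spleen and 24, 28 and 4 in the lymph node, too few to enter the test.

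Of 17362 genes tested, 7169 (41.3%) differed between the tissues. In the lymph node cells 3651 (21%) were higher and 3518 (20.3%) were lower, and 2011 and 2096 of these passed a 2-fold change. Without spleen library 3, which stood apart, 7014 genes differed, 3843 higher and 3171 lower. The median log2 fold change over all genes tested was -0.01. Counts within a gene list are to be read against these shares of 21% and 20.3%, and list medians against -0.01. These lists were chosen with earlier results of the data known, so their counts describe the libraries. Over all genes tested, the tissues did not overlap for 25.6% with the lymph node above and for 23.9% with it below.

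**Figure D1:**
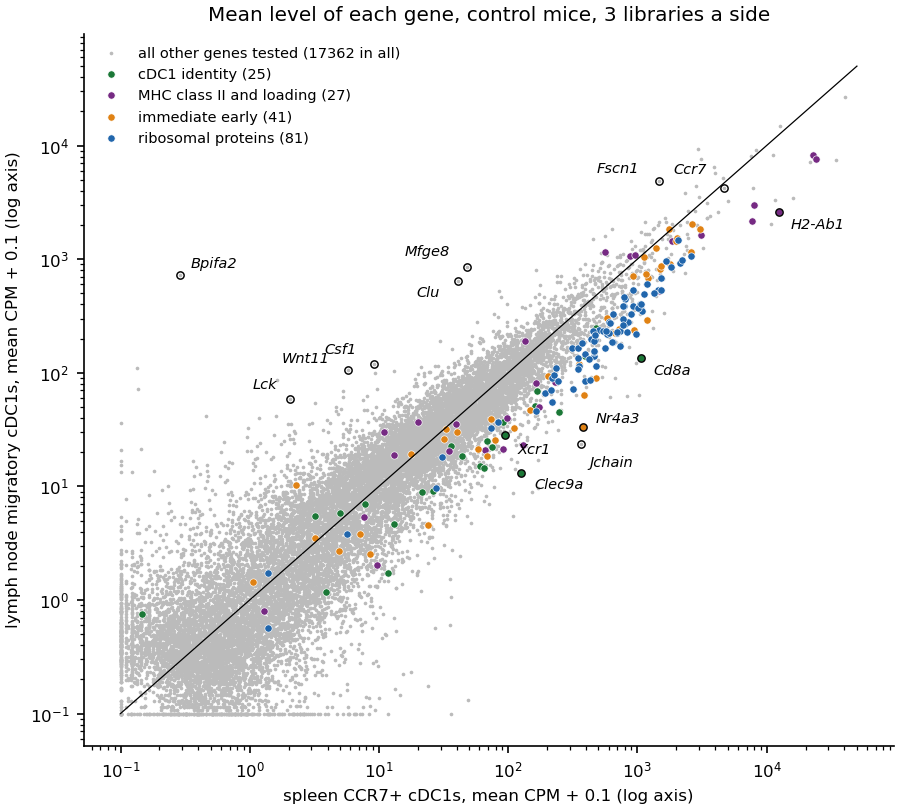
Mean TMM-scaled CPM plus 0.1 of each of the 17362 genes tested in the spleen (x axis) and the lymph node (y axis), 3 control libraries a side, both axes logarithmic. Points are genes, the line marks equal levels and coloured points are members of 4 lists. The 81 ribosomal protein genes and the immediate early genes lie mostly under the line, and Mfge8 and Clu lie above it.

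Among well-measured genes with the largest rise, several encode secreted or surface proteins of mature dendritic cells. Mfge8, encoding the lactadherin that bridges phosphatidylserine on dying cells to integrins, was at 61, 41.1 and 42.2 CPM in the spleen and 872, 849 and 862 CPM in the lymph node, a log2 fold change of 4.16 (SE 0.13, edgeR adjusted p = 7.97e-12). Clu, encoding the extracellular chaperone clusterin, went from 45.1, 38.7 and 37.7 CPM to 670, 575 and 690 CPM, a log2 fold change of 3.99 (SE 0.10). The rule that named the genes given here required that the tissues did not overlap. Wnt11, a Wnt ligand, was at 2.87, 5.58 and 8.57 CPM in the spleen and 110, 119 and 90.7 CPM in the lymph node. Slamf1, a homophilic receptor between immune cells, was at 4.93, 5.54 and 5.09 CPM against 76.2, 57.2 and 75.2 CPM. Csf1, the growth factor of macrophages, was at 4.11, 12.5 and 10.5 CPM against 126, 117 and 113 CPM. The log2 fold changes were 4.24, 3.75 and 3.73 for Wnt11, Slamf1 and Csf1. The others of this group were Gfpt2, Adm, Hpse, St5, Dgka, Selenom, Usp11 and Appl2, with log2 fold changes between 3.32 for Appl2 and 4.13 for Gfpt2. Gyg, which primes glycogen synthesis, and Zmynd15 were among the genes with the smallest p, at log2 fold changes of 2.62 (SE 0.10) and 1.53 (SE 0.06).

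The genes with the largest fall included Trpm2, a cation channel gated by ADP-ribose, at 165, 179 and 169 CPM in the spleen and 11.8, 6.89 and 10.1 CPM in the lymph node. Its log2 fold change was -4.15 (SE 0.20, edgeR adjusted p = 4.13e-10). Abcg3, a transporter gene, was at 130, 101 and 96.3 CPM against 5.01, 3.18 and 7.91 CPM. Hfe, whose protein binds the transferrin receptor, was at 109, 98.4 and 116 CPM against 9.8, 8.12 and 8.03 CPM. The log2 fold changes were -4.35 for Abcg3 and -3.64 for Hfe. Here too the naming rule required that the tissues did not overlap. Slc12a3, Jdp2, Plac8, Mast4, Lmo4 and the translation elongation gene Eef1b2 fell, at log2 fold changes from -2.99 for Lmo4 to -3.79 for Slc12a3. Nabp1, a single-stranded DNA binding protein gene, was at 1390, 1340 and 1240 CPM against 261, 231 and 248 CPM, a log2 fold change of -2.43 (SE 0.07). The same rule also named Lck and Bpifa2 among the genes that rose, and Jchain and Ms4a1 among those that fell. These mark T cells, salivary gland, plasma cells and B cells, and their levels are given with those of other cell types.

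Genes that define cDC1s were lower in the lymph node cells. Of 25 identity genes tested, 20 fell, 1 rose and 4 did not pass, with a median log2 fold change of -1.49. This list, plotted as cDC1 surface identity, also holds genes of intracellular and secreted proteins. Clec9a, the receptor for actin exposed by dead cells, was at 131, 132 and 117 CPM in the spleen and 12.9, 13.3 and 13.2 CPM in the lymph node, a log2 fold change of -3.27 (SE 0.11, edgeR adjusted p = 1.59e-11). Cd8a, the co-receptor chain that marks cDC1s resident in lymphoid organs, was at 1000, 978 and 1190 CPM against 139, 122 and 141 CPM, a log2 fold change of -2.98 (SE 0.09). Both were lower in every lymph node library, which the rule for the largest changes or smallest p, met by both, required. Tlr3, the sensor of double-stranded RNA, was at 12.6, 14.1 and 8.4 CPM in the spleen and 0.895, 0.917 and 3.02 CPM in the lymph node. Wdfy4, required for cross-presentation, was at 262, 262 and 219 CPM against 46.1, 38.2 and 50.8 CPM. Their log2 fold changes were -2.86 and -2.46. Smaller falls were seen for Btla (-2.01), Cd36 (-2.17), Cadm1 (-1.29) and Ly75 (-0.95).

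The markers of cDC1s that reside in epithelia did not separate the tissues. Itgae, encoding the CD103 integrin chain typical of migratory cDC1s, was at 2.09, 3.45 and 3.71 CPM in the spleen and 7.16, 2.8 and 6.26 CPM in the lymph node. Cd207, encoding langerin, was at 9.35, 6.75 and 6.85 CPM against 6.08, 6.96 and 7.81 CPM. Both overlapped, with edgeR adjusted p values of 0.108 and 0.708. Itgae passed without lymph node library 2, at a log2 fold change of 1.13 (adjusted p = 0.0281). The 1 identity gene that rose was Xcl1, the ligand of XCR1, which was at or below 0.101 CPM in the spleen libraries and between 0.58 and 0.716 CPM in those of the lymph node. T and NK cells are the usual source of Xcl1, and their markers were also higher in the lymph node libraries. Their part in the rise of Xcl1 was not tested, and the call was lost without lymph node library 1 (adjusted p = 0.0519) or spleen library 2 (adjusted p = 0.0516), and with no filter on low counts (adjusted p = 0.064).

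Of 34 transcription factors of dendritic cell fate tested, 14 fell (41.2%), against 20.3% of all genes tested. The 7 that rose (20.6%) were near the share of 21% over all genes. Irf8, the factor on which cDC1s depend, was at 1040, 1130 and 1230 CPM in the spleen and 1170, 1200 and 1120 CPM in the lymph node, overlapping, with an edgeR adjusted p of 0.653. Batf3, its partner in cDC1s, was at 724, 721 and 829 CPM against 315, 361 and 353 CPM, a log2 fold change of -1.14 (SE 0.08, edgeR adjusted p = 3.41e-08). With offsets for length and GC content Irf8 passed as lower, at -0.17 (adjusted p = 0.0439). Batf, Mycl and Ahr fell, at log2 fold changes of -1.75, -1.73 and -1.67, as did Id2 and Nfil3 at -0.60 and -0.65. Zbtb46, restricted to conventional dendritic cells within the myeloid lineage, was at 118, 159 and 115 CPM in the spleen and 269, 259 and 229 CPM in the lymph node. Relb, the NF-kB subunit of mature dendritic cells, was at 1280, 1380 and 1310 CPM against 1900, 1780 and 1820 CPM. Zbtb46 rose by a log2 fold change of 0.95 (SE 0.12) and Relb by 0.47 (SE 0.06), with no overlap in either case. With offsets for length and GC content Relb was at 0.11 (adjusted p = 0.1) and no longer passed.

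Genes of major histocompatibility complex (MHC) class II presentation were lower in the lymph node cells. Class II molecules present peptides to CD4+ T cells, and their genes share the transactivator CIITA, which works through a promoter module that includes a CCAAT-type element, the Y box. Of the 27 genes of the class II and peptide loading list, 17 fell, 5 rose and 5 did not pass, with a median log2 fold change of -1.03. To show what the chain genes have in common, the 250 bases before the RefSeq start were searched on both strands for CTGATTGG, a Y box core. It was found in 4 of the 9 promoters of 8 class II chain genes with a RefSeq promoter entry (44.4%), against 3.83% of 32851 promoters of the same length. The shorter motif ATTGG, which lies within the longer one, was found in 8 of the 9 promoters (88.9%) and in 33.8% of all promoters. The 4 promoters with the longer motif are printed 5′ to 3′ on the strand of the gene (RefSeq, GRCm38.p6), with the motif in capitals. They lie at chr17:34287824-34288073 for H2-Aa (minus strand) and, on the plus strand, at chr17:34305617-34305866 for H2-Eb1, chr17:34325425-34325674 for H2-Eb2 and chr17:34092129-34092378 for H2-Oa.
H2-Aa: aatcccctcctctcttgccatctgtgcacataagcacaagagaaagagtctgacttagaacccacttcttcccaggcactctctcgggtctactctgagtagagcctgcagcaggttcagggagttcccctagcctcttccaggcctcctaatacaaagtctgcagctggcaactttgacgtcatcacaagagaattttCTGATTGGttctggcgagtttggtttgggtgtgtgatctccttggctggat
H2-Eb1: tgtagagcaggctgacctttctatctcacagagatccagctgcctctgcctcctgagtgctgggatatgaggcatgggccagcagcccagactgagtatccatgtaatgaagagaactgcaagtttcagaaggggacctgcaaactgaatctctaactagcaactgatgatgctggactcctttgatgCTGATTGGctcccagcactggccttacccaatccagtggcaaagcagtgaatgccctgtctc
H2-Eb2: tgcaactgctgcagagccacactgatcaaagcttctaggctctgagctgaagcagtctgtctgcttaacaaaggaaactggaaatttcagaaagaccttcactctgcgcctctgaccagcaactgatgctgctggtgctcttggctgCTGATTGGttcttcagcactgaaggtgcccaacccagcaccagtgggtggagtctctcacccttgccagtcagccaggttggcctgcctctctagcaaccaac
H2-Oa: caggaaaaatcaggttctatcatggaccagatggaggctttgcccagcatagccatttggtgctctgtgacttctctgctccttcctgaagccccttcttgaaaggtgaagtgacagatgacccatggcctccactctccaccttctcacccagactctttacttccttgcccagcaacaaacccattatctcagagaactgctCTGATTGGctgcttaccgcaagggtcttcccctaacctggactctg

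In these 4 promoters the motif began 51, 62, 103 and 46 bases before the RefSeq start of H2-Aa, H2-Eb1, H2-Eb2 and H2-Oa. A match describes letters and is not evidence of a bound site. H2-Aa, the alpha chain of I-A, was at 7890, 7670 and 8200 CPM in the spleen and 3030, 2740 and 3150 CPM in the lymph node, a log2 fold change of -1.41 (SE 0.06, edgeR adjusted p = 2.38e-10). Its partner H2-Ab1 was at 11200, 11500 and 14400 CPM against 2560, 2830 and 2330 CPM, a log2 fold change of -2.27 (SE 0.11). H2-Eb1, the beta chain of I-E, was at 7510, 7420 and 8140 CPM against 2160, 1960 and 2360 CPM, a log2 fold change of -1.83 (SE 0.07). For all of these chain genes the lowest spleen library was above the highest lymph node library. H2-Eb2, H2-Oa and H2-Ob fell, at log2 fold changes of -1.82, -1.66 and -2.50. The invariant chain gene Cd74 was at 21700, 21600 and 25100 CPM against 8180, 8750 and 7990 CPM, a log2 fold change of -1.45 (SE 0.08). Ciita, the transactivator, was at 93.2, 88.5 and 92.7 CPM against 17.9, 16.2 and 29.1 CPM, a log2 fold change of -2.12 (SE 0.17, edgeR adjusted p = 1.1e-07). March1, the ligase that removes class II from the surface of immature cells, also fell, from 8.23, 10.1 and 10.6 CPM in the spleen to 1.95, 2.68 and 1.21 CPM in the lymph node.

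The members that rose were the proteases Ctsb, Ctsd, Ctss and Lgmn and the RFX subunit Rfxank. Lgmn was lost without lymph node library 2 (0.42, adjusted p = 0.0553). Ctsb, a lysosomal protease, was at 511, 539 and 622 CPM in the spleen and 1250, 1200 and 1040 CPM in the lymph node, a log2 fold change of 1.06 (SE 0.10, edgeR adjusted p = 8.04e-07). Ctss, the protease that trims the invariant chain, was at 876, 796 and 960 CPM against 1110, 1080 and 1030 CPM. Its log2 fold change of 0.29 (SE 0.08) was small, and the groups did not overlap. Cst3, encoding cystatin C, an inhibitor of these proteases, was at 23900, 23000 and 25100 CPM against 7410, 7310 and 7920 CPM, a log2 fold change of -1.67 (SE 0.06). Over 25% of the exon bases of Ctsd and Rfxank, and of H2-T22 and Ftl1, are shared with another annotated gene, and no strand option was used in counting, so their values are less certain.

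Class I presentation differed from class II. Of 39 genes tested in the class I and cross-presentation list, 16 rose and 11 fell, and the median log2 fold change was 0.08. H2-K1 and H2-D1, the classical heavy chains, were at 7900 to 8770 and 11400 to 14800 CPM in the spleen and 9150 to 9270 and 13600 to 16600 CPM in the lymph node. H2-K1 passed by a narrow margin, at a log2 fold change of 0.16 (SE 0.06, edgeR adjusted p = 0.0295), and H2-D1 overlapped. H2-K1 was lost without lymph node library 1 or 2 or spleen library 1 (adjusted p = 0.0607, 0.0505 and 0.0571), with upper-quartile factors (adjusted p = 0.223) and in the control libraries alone (adjusted p = 0.0699), and was at -0.05 with offsets for length and GC content. H2-D1 passed with no filter (0.26, adjusted p = 0.000627), without spleen library 3 (0.41, adjusted p = 0.00281) or lymph node library 3 (0.32, adjusted p = 0.0379). The non-classical H2-T22 was at 211, 219 and 250 CPM against 454, 460 and 436 CPM, a log2 fold change of 0.99 (SE 0.08). Tapbpl, a peptide editor of class I, was at 324, 384 and 367 CPM against 897, 744 and 822 CPM, with no overlap (edgeR adjusted p = 1.02e-07). Cd1d1, which presents lipids to NKT cells, was at 498, 540 and 549 CPM against 97.7, 99.6 and 76.6 CPM, a log2 fold change of -2.53 (SE 0.12). Class I genes have near-identical relatives, among which multiply mapped reads can be split or lost.

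**Figure D2:**
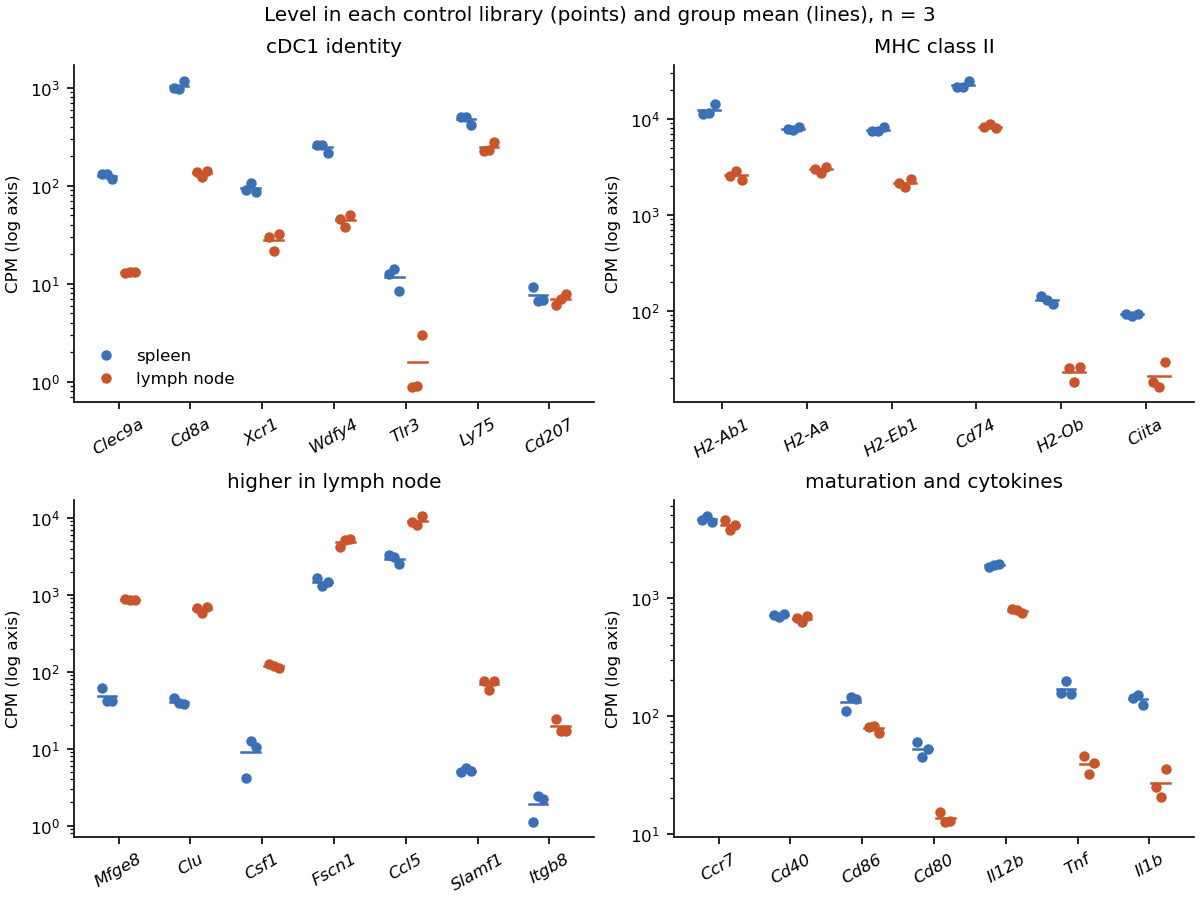
Level of single genes in each control library, in CPM on logarithmic axes. Points are libraries (spleen blue, lymph node orange, n = 3 each) and lines are group means. The groups are separate for Clec9a, H2-Ab1, Mfge8 and Il12b and overlap for Ccr7, Cd207 and Cd40.

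Genes linked to CCR7-driven maturation moved in both directions. Of 62 tested, 32 rose and 18 fell, with a median log2 fold change of 0.20. Fscn1, encoding the actin bundler fascin of mature dendritic cells, was at 1640, 1290 and 1490 CPM in the spleen and 4210, 5180 and 5260 CPM in the lymph node, a log2 fold change of 1.73 (SE 0.13, edgeR adjusted p = 5.1e-08). Il15ra, which presents IL-15 to T and NK cells, was at 320, 332 and 325 CPM against 718, 650 and 679 CPM, and Il15 itself was at 198, 195 and 192 CPM against 279, 259 and 291 CPM. Both rose without overlap, by log2 fold changes of 1.07 (SE 0.07) and 0.50 (SE 0.07). Smaller rises were found for Nfkb2 (0.49) and Socs2 (0.30), and that of Nfkb2 was lost with offsets for length and GC content (0.11, adjusted p = 0.16). Dnase1l3, a secreted nuclease, was at 1270, 1290 and 1340 CPM against 278, 415 and 360 CPM, a log2 fold change of -1.89 (SE 0.11).

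Most costimulatory and checkpoint ligands that changed were lower in the lymph node cells. Of 42 tested, 16 fell and 7 rose, with a median log2 fold change of -0.73. Cd80, a ligand of CD28 and CTLA-4, was at 60, 45.1 and 52.7 CPM in the spleen and 15.5, 12.7 and 12.9 CPM in the lymph node, a log2 fold change of -1.94 (SE 0.15, edgeR adjusted p = 7.68e-08). Cd86, the other ligand of the same receptors, was at 111, 144 and 140 CPM against 81.1, 82.5 and 72.1 CPM, a log2 fold change of -0.75 (SE 0.11). Cd274, encoding the inhibitory ligand PD-L1, was at 272, 262 and 245 CPM against 108, 102 and 109 CPM, a log2 fold change of -1.29 (SE 0.08). Cd83, a maturation marker, had a log2 fold change of -0.94 and Cd200, an inhibitory ligand, of -1.25, both past the test. Cd40, the receptor for CD40 ligand on helper T cells, was at 714, 693 and 733 CPM against 683, 623 and 701 CPM, overlapping, with an edgeR adjusted p of 0.298. Cd40 passed as lower with offsets for length and GC content, at -0.17 (adjusted p = 0.0403). Of the 7 that rose, Pdcd1, Cd28, Tnfsf8 and Slamf1 are also known in T cells. Pdcd1 and Tnfsf8, at log2 fold changes of 5.82 and 4.94, were lost without lymph node library 2, spleen library 1 or spleen library 2, and Tnfsf8 also without lymph node library 3, with adjusted p values of 0.0529 to 0.0741.

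Several inflammatory cytokine genes were lower in the lymph node cells, and the growth factor gene Flt3l was higher. Over the whole list of 66 cytokines and receptors tested, 20 rose and 18 fell. Il12b, the p40 chain of IL-12, was at 1820, 1920 and 1930 CPM in the spleen and 809, 791 and 745 CPM in the lymph node, a log2 fold change of -1.27 (SE 0.07, edgeR adjusted p = 3.12e-09). Tnf was at 156, 198 and 154 CPM against 45.9, 32.3 and 40.1 CPM, and Il1b at 143, 150 and 124 CPM against 25.2, 20.6 and 35.2 CPM. These inflammatory cytokine genes did not overlap, with log2 fold changes of -2.10 (SE 0.14) and -2.36 (SE 0.16). Lif and Il10 also fell, at log2 fold changes of -2.71 and -2.54, with Il10 at 2.87, 3.9 and 4.42 CPM in the spleen and 0.761, 0.626 and 0.532 CPM in the lymph node. Flt3l, the growth factor of dendritic cells, was at 1.06, 1.65 and 1.01 CPM against 16.7, 19.2 and 23.6 CPM, a log2 fold change of 4.01 (SE 0.33). Ebi3, a shared chain of IL-27 and IL-35, rose by 0.86 on the log2 scale.

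Chemokine ligand genes moved in both directions. Of 25 tested, 9 rose and 9 fell. The ligands of CXCR3, the receptor of effector T and NK cells, were lower. Cxcl9 was at 176, 175 and 155 CPM in the spleen and 15.8, 14.9 and 20.7 CPM in the lymph node, a log2 fold change of -3.30 (SE 0.14, edgeR adjusted p = 1.41e-10), and Cxcl10 fell by 2.80 (SE 0.23) on the log2 scale. Ccl4, an inflammatory chemokine gene, was at 68.3, 55.5 and 70.1 CPM against 7.63, 7.52 and 6.99 CPM, a log2 fold change of -3.13 (SE 0.13). Ccl5, a chemokine gene of mature dendritic cells, moved the other way, from 3270, 3110 and 2510 CPM in the spleen to 8950, 7990 and 10700 CPM in the lymph node, a log2 fold change of 1.64 (SE 0.13). Ccl22 and Ccl17, ligands of CCR4 made by mature dendritic cells, were at 895, 886 and 902 CPM and 9.86, 11.2 and 9.51 CPM in the spleen, against 1640, 1220 and 1460 CPM and 19.4, 22.8 and 24 CPM in the lymph node. Both rose without overlap. Ccl8 had no count in any spleen library and was at 3.65, 4.18 and 2.1 CPM in the lymph node, at least 97.6-fold higher taking 3 counts over the spleen group as the floor.

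Of 43 receptors for chemokines and lipid signals tested, 5 rose and 12 fell, and 9 rose without spleen library 3. S1pr1, the sphingosine-1-phosphate receptor used to leave tissues, was at 14.9, 10.7 and 11.5 CPM in the spleen and 40.1, 36.2 and 38.6 CPM in the lymph node, a log2 fold change of 1.63 (SE 0.19, edgeR adjusted p = 5.78e-06). Gpr183, the oxysterol receptor that positions dendritic cells, rose by 1.75 (SE 0.35). Cxcr4, the receptor for CXCL12, was at 39, 48.8 and 42.3 CPM against 15.7, 13.9 and 19.1 CPM, and Gpr132 and Ptafr fell, at log2 fold changes of -1.38 and -2.56. Ccr8 was at 1.81, 0.85 and 2.27 CPM in the lymph node and at most 0.101 CPM in the spleen.

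Of 49 integrin and adhesion genes tested, 18 rose and 13 fell. Itgb8, the integrin chain that activates latent TGF-beta, was at 1.12, 2.45 and 2.19 CPM in the spleen and 24.6, 16.8 and 16.9 CPM in the lymph node, a log2 fold change of 3.35 (SE 0.34, edgeR adjusted p = 1.63e-06). Cdh2, encoding N-cadherin, was at 0.393, 0.442 and 2.43 CPM against 47.2, 36.8 and 36.7 CPM, a log2 fold change of 5.20 (SE 0.49). Both were higher in every lymph node library. F11r, a junctional adhesion molecule, and Icam1, a ligand of the integrin LFA-1, rose by log2 fold changes of 1.60 and 1.12. Itgax, encoding the CD11c integrin chain, was at 209, 237 and 208 CPM in the spleen and 42, 39 and 32.5 CPM in the lymph node, a log2 fold change of -2.53 (SE 0.10). Cd44, the hyaluronan receptor, was at 408, 407 and 340 CPM against 88.3, 92.4 and 101 CPM, a log2 fold change of -2.04 (SE 0.09). Itga4 and Itgal, further chains of leukocyte integrins, fell, at log2 fold changes of -1.05 and -1.13, while Itgb7 rose by 0.44 (SE 0.15). Itgb7 was lost without lymph node library 1 (0.32, adjusted p = 0.13) or spleen library 3 (0.41, adjusted p = 0.0606), with upper-quartile factors (0.36, adjusted p = 0.0631) and with the offsets (0.19, adjusted p = 0.377), and Itgal without spleen library 1 (-0.70, adjusted p = 0.0754).

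Genes of TGF-beta and of tolerogenic enzymes gave 17 lower and 6 higher of 48 tested. Tgfb1 was at 19.2, 24.2 and 29.1 CPM in the spleen and 10.5, 16 and 9.65 CPM in the lymph node, lower without overlap (edgeR adjusted p = 0.00121). Lrrc32, which displays latent TGF-beta on the surface, fell by 2.15 (SE 0.36). Aldh1a2, which makes retinoic acid, was at 34.7, 36.9 and 31.5 CPM against 21.9, 11.6 and 5.42 CPM, a log2 fold change of -1.41 (SE 0.32). Its lymph node libraries spread widely but stayed below the spleen libraries. Hmox1, the haem oxygenase, was at 26.5, 22.8 and 30 CPM against 3.18, 2.37 and 1.21 CPM, a log2 fold change of -3.55 (SE 0.29). Kmo, of the kynurenine pathway, also fell, and Ido1 was at 4.27, 2.17 and 2.33 CPM against 3.33, 3.04 and 1.69 CPM, overlapping, with an edgeR adjusted p of 0.855.

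Matrix and cytoskeleton genes moved in both directions. Mmp14, a membrane-bound collagenase that dendritic cells use to cross tissue, was at 1.03, 0.161 and 0.405 CPM in the spleen and 22.5, 22.5 and 28.1 CPM in the lymph node, a log2 fold change of 5.46 (SE 0.46, edgeR adjusted p = 2.1e-07). Adam15, a membrane metalloprotease, rose by 3.29 and Nrp2, a receptor that binds semaphorins, also rose. Msn, encoding the membrane linker moesin, was at 169, 181 and 172 CPM against 583, 487 and 422 CPM, a log2 fold change of 1.52 (SE 0.11). The actin-sequestering thymosin Tmsb10 was at 533, 470 and 480 CPM against 126, 130 and 133 CPM, a log2 fold change of -1.93 (SE 0.09), and Tpm2, a tropomyosin, fell by 2.48. Over the lists, 11 of 41 matrix and protease genes rose and 13 fell, and 20 of 60 cytoskeleton genes rose and 21 fell. Adam19, a membrane metalloprotease, was at 200, 232 and 212 CPM in the spleen and 64.7, 66.1 and 63.4 CPM in the lymph node.

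Genes for the uptake of dying cells and for complement gave 14 higher and 6 lower of 39 tested, with a median log2 fold change of 0.65. Besides Mfge8, the C1q chains, which opsonise apoptotic cells, rose from low levels. C1qb was at 0.0605, 1.04 and 0.742 CPM in the spleen and 9.17, 8.41 and 8.66 CPM in the lymph node, a log2 fold change of 3.85 (SE 0.82, edgeR adjusted p = 0.00148), and C1qa and C1qc rose by 3.09 and 3.38. C1qa was lost without lymph node library 2 or spleen library 2 (adjusted p = 0.0824 and 0.0554) and in the control libraries alone (adjusted p = 0.0936). Macrophages are the usual source of C1q. The list of red pulp macrophage markers, which includes the C1q chains, gave 6 higher and 6 lower of 19 tested, and that of lymph node and marginal zone macrophages gave 3 higher and 1 lower of 9. Cd209b, a lectin of marginal zone macrophages, had no count in the spleen and 326 counts in the lymph node, at least 72.8-fold higher with 3 counts over the group as the floor. The part of macrophage RNA was not tested. Axl, a receptor for bridged phosphatidylserine, was at 6.93, 11.1 and 9.58 CPM against 11.1, 10.7 and 10.4 CPM and overlapped. Havcr2, encoding TIM-3, fell by 1.65 (SE 0.17).

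Of 38 C-type lectin and scavenger receptor genes tested, 13 fell and 4 rose, and of 40 Toll-like receptor and adaptor genes 12 fell and 8 rose. Without lymph node library 1, 2 of the lectin and 5 of the Toll-like receptor genes rose. Clec7a, encoding the beta-glucan receptor dectin-1, was at 52.1, 64.8 and 49.6 CPM in the spleen and 15.4, 13.5 and 14.9 CPM in the lymph node, a log2 fold change of -1.92 (SE 0.13, edgeR adjusted p = 2.45e-08). Tlr11, a sensor of profilin from parasites, was at 38.7, 47.1 and 45.3 CPM against 18.4, 17.9 and 19.4 CPM, a log2 fold change of -1.23 (SE 0.14). Galectin genes diverged. Lgals3 was at 529, 506 and 573 CPM against 119, 115 and 112 CPM, a log2 fold change of -2.22 (SE 0.07), whereas Lgals1 was at 15.7, 18.6 and 11.2 CPM against 52.4, 55.6 and 70.3 CPM, a log2 fold change of 1.97 (SE 0.17). Among 11 Fc receptor genes, 3 rose and 3 fell. Fcer1g, the shared signalling chain, rose by 0.55 and Fcgr2b, the inhibitory receptor for IgG, fell by 0.95 on the log2 scale. Fcgr2b was lost without spleen library 1 or lymph node library 3 (adjusted p = 0.055 and 0.0611) and in the control libraries alone (adjusted p = 0.0621).

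Immediate early genes, which are transcribed within minutes of a stimulus, were lower in the lymph node cells. Of 41 tested, 30 fell and 1, Myc, rose, with a median log2 fold change of -0.92. The cyclic AMP response element is a known route to several of them, and its core half-site is TGACG. That motif was searched on both strands of the 250 bases before the RefSeq start and found in promoters of 14 of the 26 early genes that fell and had an entry. By promoter this was 54.8% of 31, against 17.8% of all 32851. Early genes that did not fall were not counted apart, so whether the motif goes with the fall was not tested. Promoters with at least 4 matches were 0.137% of all, and those of Nr4a1 and Nr4a3 were among them. Both are printed 5′ to 3′ on the plus strand (RefSeq, GRCm38.p6), from chr15:101266596-101266845 for Nr4a1 and chr4:48045055-48045304 for Nr4a3, because Nr4a3 had the largest fall of the list. Capitals mark TGACG or its reverse complement CGTCA.
Nr4a1: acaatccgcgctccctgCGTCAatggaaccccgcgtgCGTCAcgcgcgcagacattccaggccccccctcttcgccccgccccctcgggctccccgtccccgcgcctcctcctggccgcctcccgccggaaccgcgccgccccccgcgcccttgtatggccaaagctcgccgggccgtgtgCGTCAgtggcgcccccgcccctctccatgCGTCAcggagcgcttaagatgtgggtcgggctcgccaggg
Nr4a3: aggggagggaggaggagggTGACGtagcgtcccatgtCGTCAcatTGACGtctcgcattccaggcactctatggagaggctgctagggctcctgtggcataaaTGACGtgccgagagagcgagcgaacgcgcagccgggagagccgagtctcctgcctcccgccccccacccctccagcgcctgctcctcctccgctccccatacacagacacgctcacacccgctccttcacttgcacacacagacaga

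Nr4a3, an orphan nuclear receptor induced on activation and needed for dendritic cell migration, was at 396, 407 and 337 CPM in the spleen and 29.9, 27.7 and 41.5 CPM in the lymph node, a log2 fold change of -3.53 (SE 0.16, edgeR adjusted p = 2.82e-10). Its relative Nr4a1 was at 324, 355 and 371 CPM against 122, 124 and 114 CPM, a log2 fold change of -1.54 (SE 0.10). Neither overlapped between tissues, which the rule for the largest changes required of Nr4a3. Fosb, an AP-1 subunit, was at 431, 402 and 324 CPM against 56.5, 59.6 and 73.5 CPM, and Fos at 1470, 1550 and 1490 CPM against 861, 793 and 813 CPM. Their log2 fold changes were -2.61 (SE 0.14) and -0.87 (SE 0.07). Rgs2, Egr2, Atf3 and Egr1 fell, at log2 fold changes of -2.43, -2.42, -1.57 and -0.92. Junb was at 1230, 1330 and 1600 CPM in the spleen and 1290, 1360 and 1100 CPM in the lymph node and overlapped. The matches in the promoters are a description of letters, and binding was not measured.

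Of 40 NF-kB pathway genes, 15 rose and 16 fell, 10 without spleen library 2. Rel, encoding c-Rel, was at 683, 744 and 628 CPM in the spleen and 174, 178 and 204 CPM in the lymph node, a log2 fold change of -1.89 (SE 0.09, edgeR adjusted p = 4.13e-10), while the non-canonical Relb and Nfkb2 rose. Nfkbiz and the inhibitor gene Tnip3 fell, at log2 fold changes of -1.58 and -2.46, and Tnip1 rose by 1.13. Interferon-stimulated genes also moved both ways, with 25 of 68 higher and 20 lower. Ifi206, Ddx58 and Ifit1 rose by 6.67, 2.09 and 1.19 and Isg15, at 74.5, 81.8 and 98 CPM in the spleen and 43.2, 39.8 and 52.3 CPM in the lymph node, fell by 0.91 on the log2 scale.

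**Figure D3:**
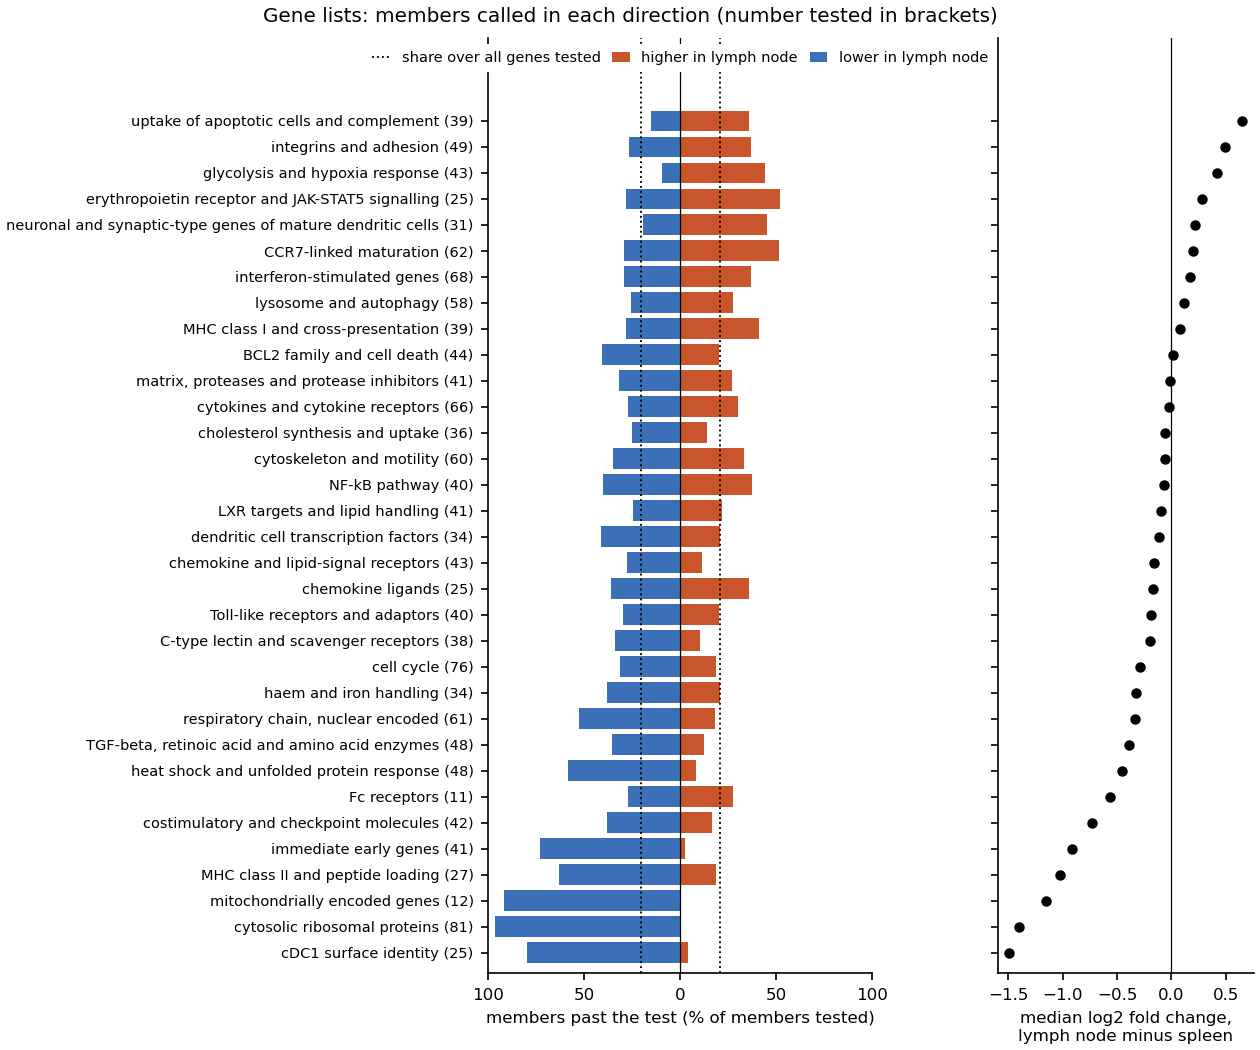
Left, the share of tested members of each of 33 gene lists that were higher (orange) or lower (blue) in the lymph node, in percent, with dotted lines at the shares over all genes tested (21% and 20.3%). Right, the median log2 fold change of each list, lymph node minus spleen. The lists run from cDC1 surface identity at -1.49 to uptake of apoptotic cells and complement at 0.65.

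Transcripts of the translation machinery were lower in the lymph node cells. Of 81 cytosolic ribosomal protein genes tested, 78 fell, none rose and 3 did not pass, with a median log2 fold change of -1.40. Rplp1, of the ribosomal stalk, was at 1030, 1050 and 825 CPM in the spleen and 197, 173 and 285 CPM in the lymph node, a log2 fold change of -2.15 (SE 0.19, edgeR adjusted p = 4.69e-07). Rpl3, of the large subunit, was at 935, 965 and 856 CPM against 526, 451 and 615 CPM, a log2 fold change of -0.79 (SE 0.10). Eef1b2, an elongation factor subunit, was at 1020, 1000 and 910 CPM against 112, 109 and 146 CPM, a log2 fold change of -3.00 (SE 0.14). Ribosomal protein genes have many pseudogene copies, which can divide reads. They are also short, and other short genes fell too. The median was -0.67 over 208 genes with under 1000 exon bases and a mean of at least 3 log2 CPM, ribosomal protein genes left out, and 0.15 over 2235 genes of 2000 to 4000 bases. With offsets for length and GC content together, chosen after the data were seen, the median of the ribosomal protein genes was -1.24. The part of length alone was not tested.

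Mitochondrial and chaperone transcripts were also lower where most members changed. Of 12 genes encoded by mitochondrial DNA, 11 fell and none rose, with a median of -1.15, and of 61 nuclear genes of the respiratory chain 32 fell and 11 rose. With offsets for length and GC content these counts were 3 lower for the mitochondrial DNA, and 17 lower and 17 higher for the nuclear genes. mt-Co1, a cytochrome c oxidase subunit, was at 2630, 2510 and 2070 CPM in the spleen and 1090, 1010 and 1480 CPM in the lymph node, a log2 fold change of -1.01 (SE 0.15, edgeR adjusted p = 7.22e-05). Of 48 heat shock and unfolded protein response genes, 28 fell and 4 rose (median -0.46). Hspe1, the mitochondrial co-chaperone HSP10, was at 416, 368 and 405 CPM against 73.5, 71.5 and 78.5 CPM, a log2 fold change of -2.41 (SE 0.09). Hsp90aa1, the inducible HSP90, was at 1010, 1150 and 994 CPM against 314, 300 and 365 CPM, a log2 fold change of -1.69 (SE 0.11), and Hspa5, the chaperone of the endoplasmic reticulum, fell by 0.45. Gpx1, the peroxidase that removes hydrogen peroxide, was at 1670, 1490 and 1690 CPM against 338, 337 and 329 CPM, a log2 fold change of -2.27 (SE 0.07).

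Glycolysis and hypoxia-response genes gave 19 higher and 4 lower of 43 tested (7 lower without spleen library 1), with a median of 0.42. Adm, encoding the vasoactive peptide adrenomedullin and a target of hypoxia-inducible factors, was at 1.69, 1.41 and 5.23 CPM in the spleen and 37.7, 40.7 and 27.9 CPM in the lymph node, a log2 fold change of 3.67 (SE 0.39, edgeR adjusted p = 2.74e-06). Eno1, encoding enolase, was at 76.7, 87.3 and 88.2 CPM against 219, 248 and 222 CPM, a log2 fold change of 1.45 (SE 0.12). The hexokinase genes moved in opposite directions, as Hk1 rose from 12.6, 18.1 and 16.1 CPM to 58.1, 42.3 and 48.5 CPM and Hk2 fell from 10.7, 12 and 8.94 CPM to 2.08, 3.78 and 2.2 CPM. Ldha, encoding lactate dehydrogenase A, was at 128, 126 and 140 CPM against 136, 113 and 120 CPM and overlapped. Ldha passed as lower with offsets for length and GC content, at -0.27 (adjusted p = 0.0243).

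Cell cycle genes gave 14 higher (18.4%) and 24 lower (31.6%) of 76 tested, against 21% and 20.3% of all genes tested. The 6 genes of the MCM helicase, which licenses replication origins, rose in the control libraries. In the cKO libraries 3 genes of the whole list rose and 30 fell, so these 6 did not all rise there. Mcm6 was at 19.1, 15.3 and 9.82 CPM in the control spleen and 34.3, 41.6 and 41.7 CPM in the control lymph node, a log2 fold change of 1.41 (SE 0.21, edgeR adjusted p = 6.14e-05). Ube2c, of the anaphase-promoting complex, was at 22.4, 26.4 and 28.3 CPM against 5.15, 5.88 and 4.52 CPM, a log2 fold change of -2.31 (SE 0.18), and Mki67, Birc5 and Top2a fell too, the last pair at log2 fold changes of -2.15 and -1.11. Ccnd3, encoding cyclin D3, rose from 123, 116 and 142 CPM to 394, 368 and 364 CPM, a log2 fold change of 1.56 (SE 0.10).

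Of 44 survival and cell death genes tested, 18 fell (40.9%), against 20.3% of all genes tested. The 9 that rose (20.5%) were near the share of 21% over all genes. Bcl2l11, encoding the death activator BIM, was at 204, 189 and 179 CPM in the spleen and 48.1, 47.4 and 43 CPM in the lymph node, a log2 fold change of -2.05 (SE 0.12, edgeR adjusted p = 3.8e-09). Bcl2, the survival factor, was at 1.88, 2.57 and 2.29 CPM against 7.18, 9.2 and 4.06 CPM, a log2 fold change of 1.60 (SE 0.36), and Mcl1, another survival factor, fell by 0.92 (SE 0.23), a call lost with no filter on low counts (adjusted p = 0.067). In the list of erythropoietin receptor and JAK-STAT5 signalling genes, 13 of 25 rose and 7 fell. Jak3, the kinase of the common gamma chain, was at 15.7, 14.9 and 17.8 CPM against 73.1, 49.4 and 63 CPM, a log2 fold change of 1.94 (SE 0.19). Jak2, the kinase of the erythropoietin receptor, was at 339, 298 and 281 CPM against 161, 229 and 172 CPM, a log2 fold change of -0.71 (SE 0.12). Pim1, a STAT5 target, fell by 1.65, Stat5b rose by 0.58, and Stat5a, at 150, 135 and 130 CPM against 160, 131 and 149 CPM, overlapped.

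Of 34 haem and iron genes tested 7 rose and 13 fell, of 41 LXR target and lipid handling genes 9 rose and 10 fell, and of 36 cholesterol genes 5 rose (3 without lymph node library 3) and 9 fell. Fth1 and Ftl1, the chains of the iron store ferritin, moved apart. Fth1 was at 1450, 1410 and 1540 CPM in the spleen and 2230, 2010 and 2150 CPM in the lymph node, a log2 fold change of 0.53 (SE 0.06, edgeR adjusted p = 6.53e-06), and Ftl1 at 7370, 7150 and 9220 CPM against 4150, 4800 and 3790 CPM, a log2 fold change of -0.90 (SE 0.10). Spic, the factor of iron-recycling macrophages, was at 89.4, 67.1 and 73.1 CPM against 15.4, 14.1 and 12.3 CPM, a log2 fold change of -2.46 (SE 0.16). Aco1, the iron-sensing aconitase, rose by 1.96 and Apoe, a lipid carrier, fell by 2.41 (SE 0.09), from 309, 334 and 367 CPM to 66.1, 63 and 61.3 CPM. The lysosome and autophagy list gave 16 higher and 15 lower of 58. Among 31 genes of neuronal type known in mature dendritic cells 14 rose and 6 fell, among them Arc, the activity-regulated cytoskeletal gene, at 158, 161 and 177 CPM against 910, 808 and 681 CPM, a log2 fold change of 2.27 (SE 0.15).

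Markers of other cell types also differed between the tissues. Of 24 T cell markers, 20 rose and 1 fell, with a median log2 fold change of 3.78. Their summed level differed less, at 274 to 299 CPM in the spleen and 489 to 500 CPM in the lymph node. No marker was at 0 in either. Lck, the kinase of the T cell receptor, was at 0.363, 2.13 and 3.34 CPM against 62, 51.7 and 62.5 CPM, a log2 fold change of 4.93 (SE 0.62, edgeR adjusted p = 4.32e-05). Trac, the constant region of the receptor alpha chain, was at 1.03, 2.69 and 2.19 CPM against 40.1, 34 and 31 CPM. Both were higher in all lymph node libraries, which the rule for the largest changes required of Lck. NK cell markers summed to 28.7 to 35.3 CPM in the spleen and 67 to 87.3 CPM in the lymph node, with 7 of 14 tested higher and 1 lower. Klrb1c, which encodes NK1.1, was at 0 in the lymph node libraries, and Gzmk, a granzyme gene, in those of both tissues. The part of T and NK cell RNA in the rise of genes that these cells also express was not tested.

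Plasma cell markers went the opposite way. Of 17, 13 fell and 1 rose, and they summed to 2320 to 2460 CPM in the spleen and 227 to 255 CPM in the lymph node. Jchain, which joins polymeric antibodies, was at 345, 382 and 380 CPM against 23, 24.2 and 23.1 CPM, a log2 fold change of -3.98 (SE 0.08, edgeR adjusted p = 5.13e-14). Igkc, the kappa constant region, was at 863, 836 and 777 CPM against 63.9, 59.9 and 64.5 CPM. Ighg1 and Tnfrsf17 were at 0 in the lymph node libraries. Immunoglobulin segments resemble each other, so reads between them can be misassigned. B cell markers summed to 322 to 406 CPM against 177 to 208 CPM, with 5 of 18 lower (3 without spleen library 1 or 3, or lymph node library 1 or 3), among them Ms4a1, encoding CD20, at 46.1, 47.2 and 32.5 CPM against 3.8, 1.43 and 1.76 CPM, and 1 higher.

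Neutrophil and monocyte markers summed to 38.9 to 59.1 CPM in the spleen and 12.6 to 14 CPM in the lymph node. Of 15 tested, 11 were lower and 1 higher, and 8 of the 18 markers, Ltf among them, were at 0 in the lymph node. Of these 8, Ly6g was at 0 in the spleen libraries as well. Erythroid and platelet markers summed to 119 to 140 CPM against 7.14 to 9.33 CPM, with 7 of 10 lower. In the lymph node 8 of the 19 were at 0, and of these Gp1bb was at 0 in the spleen too. Hbb-bs, a beta globin, was at 39.4, 32.9 and 35 CPM in the spleen and had no count in the lymph node libraries, at least 1572-fold lower with 3 counts over the group as the floor. Basophil and mast cell markers gave 5 of 6 lower and summed to 32.7 to 42.2 CPM against 14.5 to 19 CPM. Red pulp macrophage markers gave 6 higher and 6 lower of 19 and summed to 670 to 720 CPM against 271 to 314 CPM. The sum includes Apoe and Spic, which fell, while the median log2 fold change of the members tested was 1.01, in the opposite direction. Markers of lymph node macrophages (3 of 9 higher, 1 lower), of stroma and endothelium (5 of 14 higher, 3 without lymph node library 1, none lower) and of Langerhans cells and keratinocytes (3 of 11 higher, 1 lower) summed to at most 72.9 CPM in any library. Those of plasmacytoid dendritic cells (2 of 16 higher, 4 without spleen library 3, and 5 lower, 3 without lymph node library 1) and of cDC2s and monocyte-derived cells (none of 22 higher, 7 lower) include genes that cDC1s also express.

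Genes of the salivary gland were found in the control lymph node libraries. Bpifa2, a secreted protein of the parotid gland, was at 642, 990 and 561 CPM there and at 0, 0 and 0.574 CPM in the spleen, a log2 fold change of 11.86 (SE 1.01, edgeR adjusted p = 1.8e-05). Amy1, encoding salivary amylase, was at 87.4, 167 and 74.2 CPM against 0, 0 and 0.101 CPM. Summed over 8 salivary secretory genes, chosen after their values were seen, the 3 control lymph node libraries had 719 to 1260 CPM, and the other 9 libraries of the table, those of the Epor-Xcr1-Cre cKO lymph nodes among them, had at most 1.62 CPM. These genes therefore separate the control from the cKO lymph node libraries as well as the tissues. In the spleen, 12 pancreatic enzyme genes summed to 9.68 to 22.6 CPM in the control and 27.3 to 32 CPM in the cKO libraries, against at most 0.29 CPM in the lymph node controls. The part of gland RNA in other differences was not tested. Exons of Amy1 overlap those of another annotated gene.

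**Figure D4:**
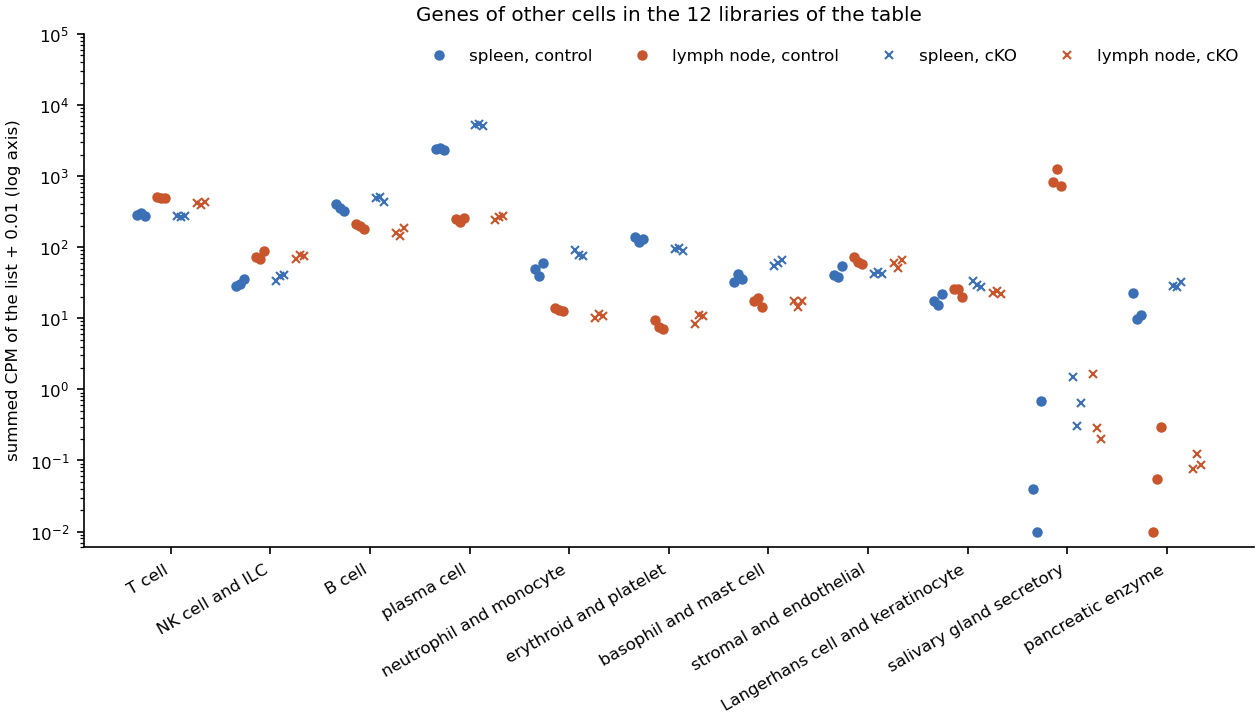
Summed CPM plus 0.01 of marker lists of other cells, on a logarithmic axis, in the 12 libraries of the table. Dots are control and crosses are cKO libraries, spleen in blue and lymph node in orange. Salivary gland genes reach 719 CPM or more in the 3 control lymph node libraries and at most 1.62 CPM in the other 9.

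The same contrast in the cKO libraries, which share no library with the control contrast, gave 5107 genes (29.4%), of which 2454 (14.1%) were higher and 2653 (15.3%) lower in the lymph node. Of the control calls, 4213 were also called in the same direction in the cKO libraries, which is 58.8% of the control calls and 82.5% of the cKO calls, and 11 were called in opposite directions. Ribosomal protein genes fell there in 74 cases and none rose, and immediate early genes fell in 31 and none rose. Of the cDC1 identity genes 20 fell and none rose, and of the class II list 17 fell and 4 rose. Several other lists gave fewer rises there than in the controls, as did all genes tested. Of the cell cycle genes 3 rose and 30 fell, and of the uptake and complement genes 7 rose and 7 fell. Glycolysis and hypoxia genes gave 13 higher and 8 lower, and integrin and adhesion genes 11 higher and 13 lower. Of the red pulp macrophage markers 1 rose and 6 fell. The tissue difference itself was tested between the genotypes and differed for 55 genes (0.317%), with 2173 at an unadjusted p under 0.05. The genes with the smallest p were the immunoglobulin segments Igkv10-96, Igkv8-30, Iglv3, Ighv1-55 and Igkv4-57. Of the genes with values given, Clu had a log2 fold change of 3.99 in the controls and 2.91 in the cKO libraries (edgeR adjusted p of the difference 0.000666), Cd8a of -2.98 and -2.27 (0.0178), and Nr4a3 of -3.53 and -2.44 (0.037). Without spleen library 3 of the controls the number was 222 genes, and without lymph node library 1 it was 30.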

How the data were processed

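RNA of sorted cDC1s was sequenced from SMART-Seq libraries (10 ng of RNA, 150 pg of cDNA into Nextera XT, per the labels' protocols). The deposited table holds raw counts per gene made by the authors, with featureCounts 2.0.8 and Ensembl release 100 per the file headers and HISAT2 2.1.0 and mm10 per the submitters' processing notes. Per the file headers, read pairs were not counted as fragments, so a pair can add more than 1 count, and no strand option was set. Intervals and floors cover counting error only.

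Groups were taken from the labels. Counts were fitted in edgeR 4.0.16 (R 4.3.3) with TMM factors, filterByExpr (minimum count 10, minimum total 15) and the quasi-likelihood test, over the 12 libraries of the table in 4 groups that share one estimate of spread. Benjamini-Hochberg adjusted p-values under 0.05 were called, with no minimum fold change. The test was checked on counts simulated with less spread between libraries than the data, whose common biological coefficient of variation was 0.396. That check therefore does not give the error rate of the calls here. Fold bounds use a floor of 3 counts over a group. No pair of the 6 libraries agreed within sampling noise.

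The comparison and its 46 gene lists were chosen with earlier results of these data known. Named were the sort genes, Epor, the 15 strongest changes each way and the 5 smallest p-values each way (mean of at least 3 log2 CPM, no overlap, predicted models and receptor segments left out), list members, and the 5 genes with the smallest p in the difference between genotypes. Alternatives were DESeq2 1.42.0, limma-voom 3.58.1, other scaling factors, no filter, a 1.5-fold minimum, the 6 control libraries alone, genes of other cells left out, a replicate block, each library left out, and, added after the data were seen, offsets for length and GC content. Promoters are the 250 bases before RefSeq starts on GRCm38.p6. The other groups of the series were not analysed here.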

Additional observations from a re-analysis of the deposited data

Results flagged for a closer look

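The tissue difference was tested between the genotypes, and the genes below, all described in the report, had an edgeR adjusted p under 0.05 for it. Values are the log2 fold change in the cKO libraries minus that in the controls. It was -1.08 for Clu, -0.87 for Mfge8, -1.06 for Itgb7, -0.82 for Ldha, -0.90 for Egr1 and -0.48 for Fos. In the other direction it was 0.71 for Cd8a, 0.41 for Cst3, 0.63 for Cd274, 0.86 for Bcl2l11, 0.76 for Rel, 1.08 for Nr4a3, 1.37 for Spic, 0.71 for Adam19 and 0.66 for Nabp1.

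Plasma cell genes had a difference of -0.98 for Jchain and -0.82 for Igkc. The immunoglobulin segments had -11.92 for Igkv10-96, -11.63 for Igkv8-30, -8.06 for Iglv3, -12.82 for Ighv1-55 and -13.21 for Igkv4-57, and the salivary gland gene Amy1 had -13.01. Fitted values of this size rest on libraries with few or no counts and are no bounds.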

How the results depend on the processing

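The number of genes that differed between the tissues was 3639 with a minimum fold change of 1.5 (1770 higher, 1869 lower), and 5877 to 7014 (3004 to 3843 higher, 2873 to 3190 lower) when each control library was left out. Of the 7169 calls, 5615 to 7145 kept their direction and call under other scaling factors, DESeq2, limma-voom, no filter, the 6 control libraries alone and the exclusion of genes of other cells, and none reversed there. The lowest value, 5615, was that of the 6 control libraries alone. Of 92 list counts, higher and lower for each of 46 lists, 11 changed by more than 1.5-fold in that fit. With the minimum fold change 47 of the 92 did, and 26 of 202 genes named lost their call. With offsets for length and GC content 5983 were kept and 11 reversed. Library totals in place of TMM moved the median of all genes from -0.01 to 0.22, and upper-quartile factors moved it to -0.09.

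The number of genes whose tissue difference differed between genotypes was 426 in DESeq2, 364 with no filter, 20 with the minimum fold, 15 without genes of other cells and 30 to 222 when a control library was left out. With the replicate number as a block it was 15, and 6177 genes differed between tissues. Correlations of deviations between same-numbered control libraries were -0.03, -0.18 and -0.23, and over all control pairs they ran from -0.23 to 0.26. With 3 libraries a group these values cannot decide whether the numbers pair the samples.

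Values that changed sign were those of Irf8 (-0.0355 with upper-quartile factors, -0.17 with the offsets), Cd207 (-0.221 to 0.063 with a library left out, 0.15 with the offsets), Ido1 (-0.296 to 0.287 with a library left out, 0.12 with the offsets), Junb (from -0.211 to 9.99e-05, the latter without spleen library 3), and, with the offsets, Axl (-0.10), Stat5a (-0.21) and H2-K1 (-0.0541). Of these, H2-K1 alone had passed the test, and Irf8 passed it with the offsets, as lower (adjusted p = 0.0439). The cause of these changes was not tested. Genes at a few CPM are limited by depth.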
